A study of Mus musculus with 8 samples.

Results

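The 34 genes described here carry out or regulate glycolysis, or belong to the transcriptional response to low oxygen. They were chosen by gene symbol from a fixed list of names, and all 34 were found among the 31228 genes of the deposited expression table. The samples came from C57BL/6 mice. Fresh epithelium was sequenced from the extrahepatic bile duct (1 library) and from the pancreatic duct (1 library), as were 3 organoid cultures grown from each duct. Both kinds of duct were dissected, minced and digested with collagenase IV for 20 min at 37 °C. The epithelia then went directly into Trizol, whereas the organoids were grown in Matrigel for 3 to 4 passages under 95% air and 5% CO2. The growth medium contained EGF, R-Spondin-1, Noggin, FGF10, nicotinamide and N-acetylcysteine, with Wnt3A and Y27632 only until luminal organoids had formed. No genotype, age or treatment differs between the groups in the labels, which also do not say whether organoids of the same kind came from separate mice. The p-values therefore measure the spread between these samples, which may be technical.

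Glycolysis turns glucose into pyruvate in the cytoplasm, and lactate dehydrogenase or the mitochondrial pyruvate dehydrogenase complex takes the pyruvate further. Several of its enzymes exist as isozymes from separate genes, whose balance differs between tissues and between resting and dividing cells. When oxygen is scarce, prolyl hydroxylases no longer mark the α subunits of the hypoxia-inducible factors for destruction, and these factors then bind DNA at a short core motif and induce glycolytic enzymes, lactate export and vascular signals. Hif1a mRNA itself need not change in that response, since its control is mainly at the level of the protein.

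The expression values are FPKM, read numbers divided by exon length and sequencing depth, as deposited. The values implied 12876470 reads in the bile duct epithelium, 15455993 in the pancreatic duct epithelium and between 15405377 and 20828217 in organoids. Genes of the mitochondrial genome took 24.9% of all FPKM in the bile duct epithelium and 18.8% in that of the pancreatic duct, but 5.43% to 7.29% in organoids. The epithelia also held RNA of other cell types. The 8 acinar markers summed to 15561 FPKM in the bile duct epithelium, 34888 in the pancreatic duct epithelium and at most 1.52 in any organoid, where Amy2a5, Cela3b, Cpa1 and Pnlip were at 0. The 6 fibroblast markers summed to 1206 and 1372 FPKM against at most 2.71 (Lum at 0 in all organoids), the 5 smooth muscle markers to 1690.2 and 3185 against at most 0.686, the 5 endothelial markers to 312 and 538 against at most 0.0839, and the 6 immune markers to 348 and 337 against at most 4.46. The 8 markers of duct epithelium, among them Krt19, Krt7 and Sox9, summed to 2183 FPKM in the bile duct sample and 471 in the pancreatic duct sample, below all organoids (4614 to 11022). The part of these other cells in the differences below was not tested, and in such bulk samples fewer cells of a type cannot be told apart from less RNA per cell. All 10 immediate early genes of a fixed list, which respond within minutes to handling and growth signals, were lower in organoids (median log2 difference -4.09), and all 10 proliferation genes were higher (median 2.74).

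Between organoids and epithelia, most glycolytic genes rose and most hypoxia-response genes did not. Of the 34 genes, 17 were higher and 5 lower in the 6 organoids than in the 2 epithelia at an adjusted p under 0.05 (limma with the organ as a covariate), and 12 were not called. Over all 14974 genes tested, 31.9% were higher and 27.5% lower, so 50.0% of the 34 genes were called higher against that background and 14.7% lower. Without the bile duct epithelium 15 were higher and 3 lower, and without the pancreatic duct epithelium 12 were higher and 3 lower. The median log2 difference was 0.67 over the 34 genes and 0.09 over all genes tested. The glucose transporter Slc2a1 and the 14 enzymes that lead from glucose to pyruvate accounted for 11 of the 17 higher genes, with none lower and a median of 1.55. Of the 10 genes of oxygen sensing and the wider hypoxia response, 2 were higher (Egln3 and Car9), 2 were lower (Adm and P4ha1) and 6 were not called.

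**Figure D1:**
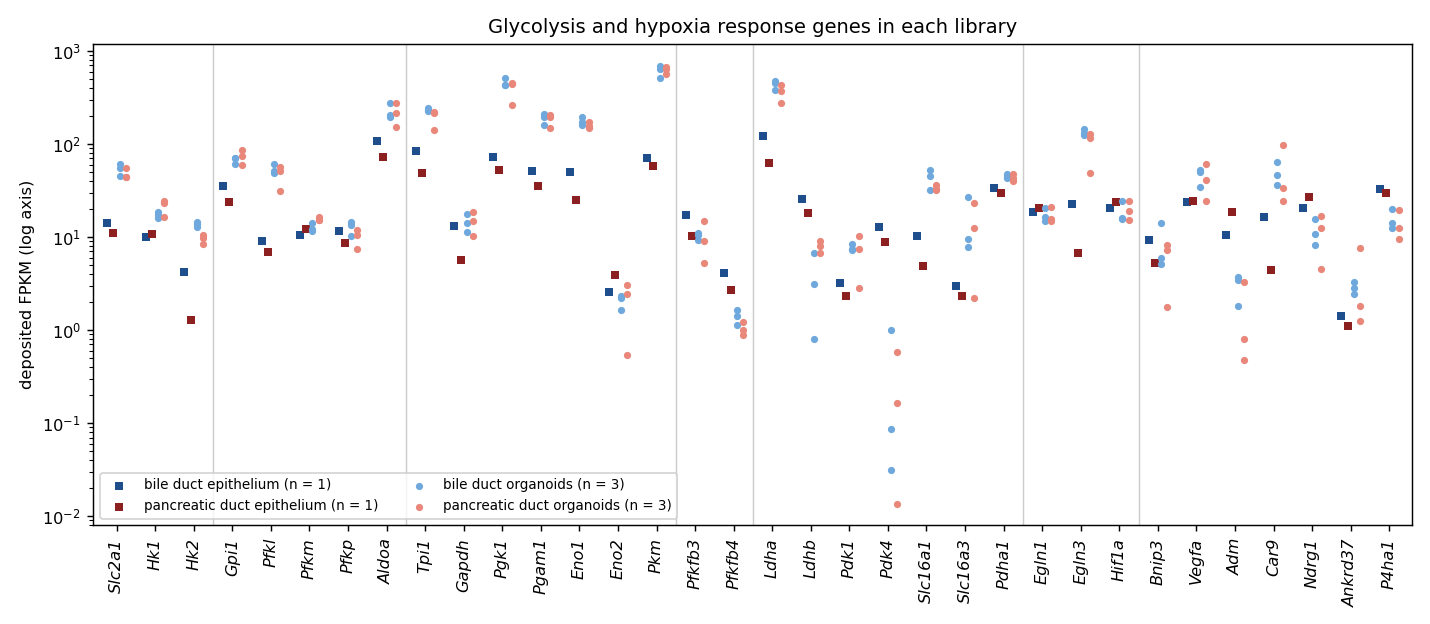
Deposited FPKM of each of the 34 genes in every library, on a log axis, ordered by role from glucose entry on the left to hypoxia targets on the right. Squares are the single epithelium libraries and circles are organoids. For Pkm, Pgk1, Pgam1 and Eno1 all 6 organoids lie above both epithelia, whereas for Pdk4, Ldhb and Adm all 6 lie below them.

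**Figure D2:**
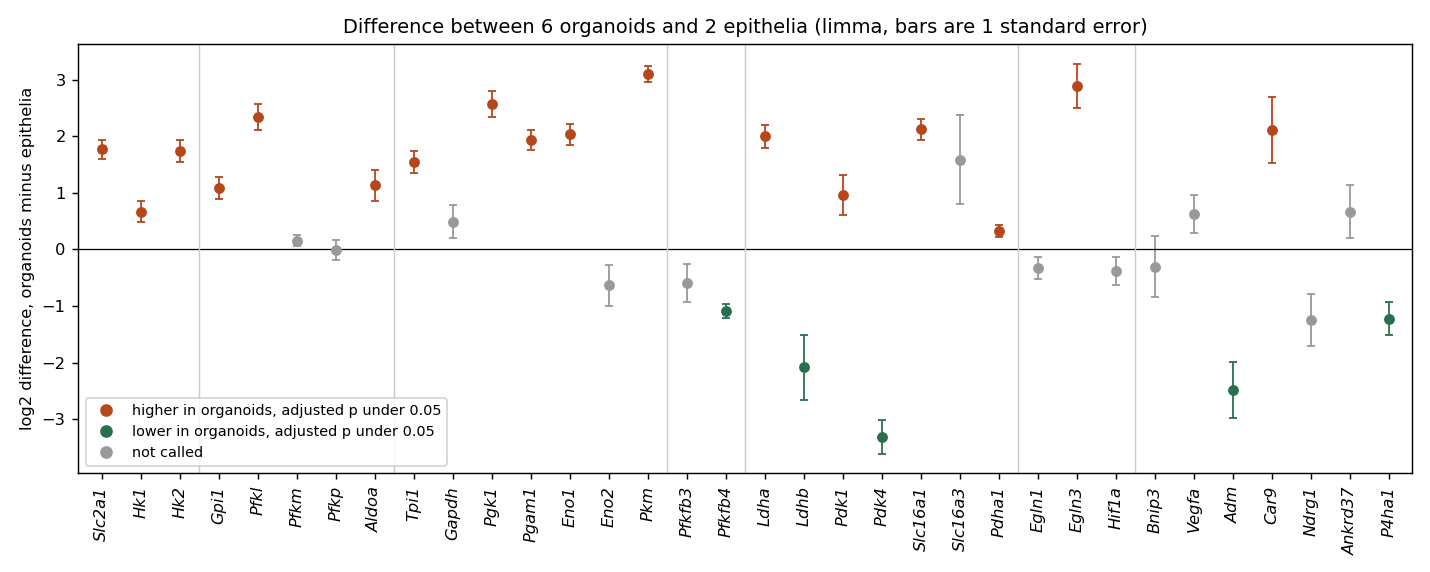
Log2 difference between the 6 organoids and the 2 epithelia for the same genes (limma, on log2 of scaled FPKM + 1), with bars of 1 standard error. Orange points are called higher, green points lower and grey points not called, and the genes called lower are Pfkfb4, Ldhb, Pdk4, Adm and P4ha1.

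The promoters of these genes were examined for the core motif bound by hypoxia-inducible factors, because glycolytic and hypoxia genes that share it differed here in direction. The motif was searched as ACGTG and as GCGTG on both strands (CACGT and CACGC on the strand shown), in windows of 300 bases from 250 before to 50 after each RefSeq start site in GRCm38.p6. A palindromic CACGTG holds ACGTG on both strands and counts once for each. Promoter entries were found for 33 of the 34 genes, all but Ndrg1. ACGTG occurred in at least 1 promoter of 21 of the 33 genes (63.6%), against 21.8% of all 27025 genes in the table, and in 24 of 46 promoters (52.2%) against 19.6% of 32851. GCGTG occurred in 56.5% of the 46 promoters against 32.4% of all. The 46 promoters were also richer in CpG, with a median of 20 CpG per window against 7, and promoters of equal CpG content were not compared. By call, ACGTG was present in 11 of 17 genes higher in organoids, in 1 of 5 lower genes and in 9 of 11 genes not called. Such a match is a description of the letters and does not show that the site is bound. The stretches below lie upstream of the start site, are written 5′ to 3′ along the gene's strand and show the motifs in capitals. Pgk1, Ldha and Egln3 are genes that rose, Slc16a3 is the gene with the widest log2 range over organoids, and P4ha1 and Adm are genes that fell.
Pgk1 (chrX:106186930-106186993, plus strand): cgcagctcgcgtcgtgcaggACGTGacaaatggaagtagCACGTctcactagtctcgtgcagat
Ldha (chr7:46845639-46845794, plus strand): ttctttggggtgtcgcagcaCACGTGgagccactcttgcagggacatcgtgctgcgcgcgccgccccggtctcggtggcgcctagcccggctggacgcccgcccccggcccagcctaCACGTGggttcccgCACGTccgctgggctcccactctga
Egln3 (chr12:54204079-54204123, minus strand): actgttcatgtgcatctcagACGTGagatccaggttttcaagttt
Slc16a3 (chr11:120949020-120949066, plus strand): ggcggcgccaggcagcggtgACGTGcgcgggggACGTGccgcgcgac
P4ha1 (chr10:59323113-59323295, plus strand): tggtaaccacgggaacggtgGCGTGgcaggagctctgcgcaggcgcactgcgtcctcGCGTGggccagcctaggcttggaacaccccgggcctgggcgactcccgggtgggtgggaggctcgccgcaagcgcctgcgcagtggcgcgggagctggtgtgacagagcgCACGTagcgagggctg
Adm (chr7:110627547-110627627, plus strand): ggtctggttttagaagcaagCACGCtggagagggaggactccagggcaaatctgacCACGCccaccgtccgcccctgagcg
The Ldha stretch held ACGTG at 5 positions when both strands were read, the most of these 33 genes. Adm had GCGTG at 2 positions and no ACGTG. Beyond these 6 genes, Pfkl and Tpi1, both higher in organoids, had no ACGTG in the window. Slc16a1, also higher, had it at 3 positions in 1 window, as did Hif1a and Pfkm, neither of them called.

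All 3 genes of glucose entry rose in organoids. Slc2a1 encodes the widely expressed glucose transporter GLUT1 (ENSMUSG00000028645). Its level was 14.1 FPKM in the bile duct epithelium and 11.2 in the pancreatic duct epithelium, 60.6, 45.3 and 54.9 in bile duct organoids 1, 2 and 3, and 44.7, 55.0 and 43.7 in pancreatic duct organoids 1, 2 and 3. All 6 organoids lay above both epithelia, by a log2 difference of 1.77 (SE 0.17, limma adjusted p = 0.000117). Hk1 and Hk2 encode the hexokinases that trap glucose as glucose 6-phosphate. Hk2, the isozyme known for its induction in growing and tumour cells, was at 4.23 and 1.27 FPKM in the bile duct and pancreatic duct epithelium. In bile duct organoids it reached 14.6, 12.9 and 13.8 FPKM, and in pancreatic duct organoids 8.45, 10.5 and 9.72, a log2 difference of 1.74 (SE 0.19, limma adjusted p = 0.000228). Hk1 stood at 10.0 and 10.9 FPKM in the epithelia and between 16.1 and 24.4 in the organoids, a log2 difference of 0.67 (SE 0.18, limma adjusted p = 0.0167). Its call was lost without the bile duct epithelium (adjusted p = 0.0781) and without the pancreatic duct epithelium (adjusted p = 0.143).

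In the hexose phosphate steps Gpi1, Pfkl and Aldoa rose, and the other phosphofructokinase genes did not pass the test. Gpi1, glucose 6-phosphate isomerase, was at 35.7 and 23.7 FPKM in the bile duct and pancreatic duct epithelium, 61.0, 71.0 and 70.3 in bile duct organoids and 59.6, 86.6 and 73.6 in pancreatic duct organoids (log2 difference 1.08, SE 0.19, limma adjusted p = 0.00239). Phosphofructokinase makes fructose 1,6-bisphosphate and is the committed step of the pathway, with liver (Pfkl), muscle (Pfkm) and platelet (Pfkp) isozymes. Pfkl was at 9.12 and 6.86 FPKM in the epithelia, 60.5, 49.0 and 50.8 in bile duct organoids and 31.3, 56.8 and 51.7 in pancreatic duct organoids. Every organoid was above both epithelia, with a log2 difference of 2.35 (SE 0.23, limma adjusted p = 0.000139). Pfkm ranged from 10.4 to 12.1 FPKM in the epithelia and from 11.5 to 16.5 in organoids (log2 difference 0.15, limma adjusted p = 0.231), and Pfkp from 8.72 to 11.5 and from 7.35 to 14.4 (log2 difference -0.01, limma adjusted p = 0.957). Aldoa, the aldolase that splits the bisphosphate, was at 106 and 72.8 FPKM in the epithelia, 278, 207 and 195 in bile duct organoids and 152, 275 and 215 in pancreatic duct organoids. Its log2 difference was 1.13 (SE 0.27, limma adjusted p = 0.00951), and without the pancreatic duct epithelium the adjusted p was 0.112.

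The genes of the triose phosphate steps included the widest rise among the 34. Pkm encodes the muscle-type pyruvate kinase, the last enzyme of glycolysis (ENSMUSG00000032294, chromosome 9, 59656368 to 59679375 on the plus strand). It was at 70.0 and 57.8 FPKM in the bile duct and pancreatic duct epithelium, 509, 632 and 691 in bile duct organoids and 645, 560.3 and 680.4 in pancreatic duct organoids. The log2 difference was 3.10 (SE 0.14, limma adjusted p = 3.01e-06), and the organoids differed among themselves by only 1.36-fold. The table does not separate the splice forms of Pkm. Pgk1, phosphoglycerate kinase (ENSMUSG00000062070, chromosome X, 106187100 to 106203699 on the plus strand), stood at 73.0 and 51.9 FPKM in the epithelia. Bile duct organoids had 425, 431 and 515 FPKM, and pancreatic duct organoids 259, 456 and 439.6 (log2 difference 2.57, SE 0.22, limma adjusted p = 7.37e-05).

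Pgam1, phosphoglycerate mutase, was at 51.4 and 35.1 FPKM in the epithelia, 159, 196 and 208 in bile duct organoids and 147, 206 and 197 in pancreatic duct organoids. Tpi1, triose phosphate isomerase, was at 83.7 and 48.9 FPKM in the epithelia, 227, 231 and 243 in bile duct organoids and 141, 223 and 215 in pancreatic duct organoids. Neither gene overlapped between organoids and epithelia, with log2 differences of 1.93 for Pgam1 (SE 0.17, limma adjusted p = 8.98e-05) and 1.55 for Tpi1 (SE 0.20, limma adjusted p = 0.000479). Eno2, the neuronal enolase, stayed low throughout, at 2.59 and 3.86 FPKM in the epithelia and 0.538 to 3.08 in the organoids (log2 difference -0.63, limma adjusted p = 0.172).

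Gapdh and Eno1 have near-identical gene copies, whose rows held more FPKM in organoids than their own rows did. In GENCODE M21, 75 other genes have a transcript that matches Gapdh (ENSMUSG00000057666, chromosome 6) at 95% identity or more over at least 300 bases, of which 72 are pseudogenes and 70 are in the table. The Gapdh row itself read 13.1 and 5.70 FPKM in the bile duct and pancreatic duct epithelium, 11.2, 14.2 and 17.6 in bile duct organoids and 10.2, 14.7 and 18.4 in pancreatic duct organoids. These values overlapped and did not pass the test (log2 difference 0.49, SE 0.29, limma adjusted p = 0.185). Without the bile duct epithelium the Gapdh row was called (log2 difference 1.03, limma adjusted p = 0.0438), and without the pancreatic duct epithelium its difference was -0.05. The copies together held 121 and 127 FPKM in the epithelia and 814 to 983 in the organoids. A single processed pseudogene at 99.9% identity, Gm13394, read 41.9 and 84.7 FPKM in the epithelia and 531 to 680.2 in the organoids. With Gapdh and its copies summed, a choice made after seeing the data, the log2 difference was 2.61 (limma adjusted p = 4.05e-06). For Eno1, the main enolase (ENSMUSG00000063524, chromosome 4), the row read 50.1 and 25.2 FPKM in the epithelia, 170.2, 161 and 193 in bile duct organoids and 147, 155 and 171 in pancreatic duct organoids (log2 difference 2.03, SE 0.19, limma adjusted p = 9.39e-05). Its 3 copies, Eno1b, Gm4735 and Gm5855, summed to 30.4 and 59.6 FPKM in the epithelia and to 574 to 646 in the organoids. Summed with them, the log2 difference of Eno1 was 3.05 (limma adjusted p = 1.24e-06). How reads that match several copies were assigned is not given in the sources used here, so levels of Gapdh, Eno1 and their copies are uncertain. Gpi1, Pgk1, Pgam1, Pkm, Ldhb and Bnip3 also had 1 to 4 such copies, and summing these changed no call of theirs.

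**Figure D3:**
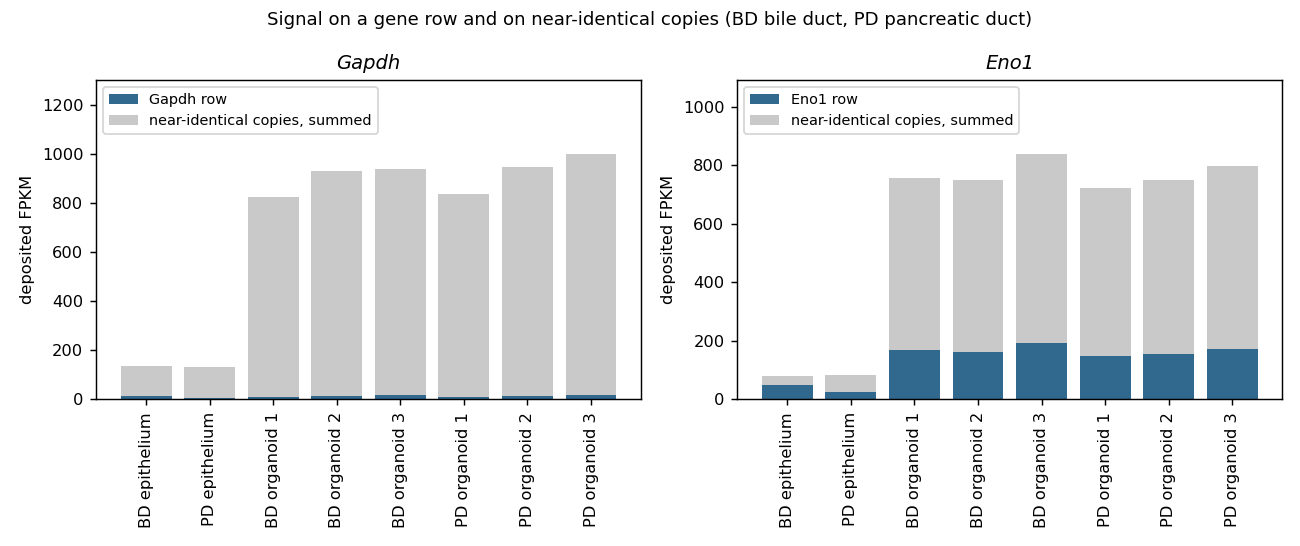
Deposited FPKM of the Gapdh row (left) and the Eno1 row (right) in each library, in blue, with the summed FPKM of near-identical copies stacked on top in grey. The Gapdh row stays between 5.70 and 18.4 FPKM in all 8 libraries, while its copies reach 814 to 983 FPKM in organoids.

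Taking the 14 enzymes from glucose to pyruvate as summed FPKM, their share of all FPKM was 0.131% in the epithelium of the bile duct, 0.0934% in that of the pancreatic duct and 0.496% to 0.698% in organoids. Leaving the mitochondrial genome out of the total, the shares were 0.175%, 0.115% and 0.535% to 0.740%. With the near-identical copies of these enzymes included, a choice made after seeing the data, the shares of all FPKM were 0.173%, 0.144% and 0.953% to 1.22%. The organoids thus lay above both epithelia on either denominator and with the copies, while the size of the share in organoids depended on the copies.

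Pfkfb3 and Pfkfb4 encode enzymes that set the level of fructose 2,6-bisphosphate, the activator of phosphofructokinase, and neither was called higher. Pfkfb4 was at 4.09 and 2.67 FPKM in the bile duct and pancreatic duct epithelium, 1.13, 1.41 and 1.66 in bile duct organoids and 1.01, 0.875 and 1.23 in pancreatic duct organoids (log2 difference -1.08, SE 0.12, limma adjusted p = 0.000263). All organoids lay below both epithelia. Pfkfb3, the form with the highest kinase activity, was at 17.4 and 10.4 FPKM in the epithelia and 5.32 to 15.0 in organoids, and was not called (log2 difference -0.59, limma adjusted p = 0.174). Without pancreatic duct organoid 2 its adjusted p was 0.0187.

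At the pyruvate and lactate steps, Ldha and Slc16a1 rose while Ldhb and Pdk4 fell. Ldha, the lactate dehydrogenase subunit associated with lactate formation, was at 122 and 62.5 FPKM in the bile duct and pancreatic duct epithelium, 382, 449 and 476 in bile duct organoids and 278, 368 and 431 in pancreatic duct organoids (log2 difference 2.00, SE 0.20, limma adjusted p = 0.000164). Ldhb, the heart-type subunit, was at 25.4 and 18.3 FPKM in the epithelia, 6.79, 0.797 and 3.15 in bile duct organoids and 7.94, 6.81 and 8.99 in pancreatic duct organoids. Every organoid was below both epithelia (log2 difference -2.09, SE 0.58, limma adjusted p = 0.0178), and without the bile duct epithelium the difference was -1.27 with an adjusted p of 0.220. Slc16a1 encodes the monocarboxylate transporter MCT1, which moves lactate and pyruvate across the membrane. It rose from 10.1 and 4.87 FPKM in the epithelia to 31.9, 45.6 and 52.3 in bile duct organoids and 31.9, 32.9 and 36.6 in pancreatic duct organoids (log2 difference 2.12, SE 0.19, limma adjusted p = 7.62e-05).

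Slc16a3, the lactate exporter MCT4, varied widely between cultures. It was at 3.01 and 2.31 FPKM in the bile duct and pancreatic duct epithelium, 27.1, 7.90 and 9.46 in bile duct organoids and 2.23, 23.5 and 12.4 in pancreatic duct organoids. Pancreatic duct organoid 1 was below both epithelia and the other 5 organoids were above them. The difference did not pass the test (log2 difference 1.58, SE 0.78, limma adjusted p = 0.122), and without pancreatic duct organoid 1 it was 1.97 with an adjusted p of 0.0250.

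Pdk1 and Pdk4 encode kinases that switch off pyruvate dehydrogenase. Pdk4, the form induced by fasting and fatty acids, was at 12.9 and 8.90 FPKM in the bile duct and pancreatic duct epithelium, 0.991, 0.0855 and 0.0310 in bile duct organoids and 0.166, 0.583 and 0.0137 in pancreatic duct organoids. These values correspond to 584 and 483 reads in the epithelia and 1 to 62 reads in the organoids. The log2 difference was -3.31 (SE 0.30, limma adjusted p = 9.32e-05), but Pdk4 passed the minimum of 1 FPKM in at least 2 libraries through the epithelia, so it could have been called only as a gene lower in organoids. With a pseudocount of 0.1 FPKM in place of 1 the difference was -5.36. Pdk1, a hypoxia target, was at 3.20 and 2.30 FPKM in the epithelia and 2.86 to 10.2 in organoids. It sat at the edge of the threshold (log2 difference 0.96, SE 0.35, limma adjusted p = 0.0499), and leaving out any library except pancreatic duct organoid 1 ended the call, with adjusted p between 0.0595 and 0.221. Median-of-ratios scaling also ended it (adjusted p = 0.0777), as did testing all genes without a filter (adjusted p = 0.0760). Pdha1, the catalytic subunit of pyruvate dehydrogenase itself, was at 33.8 and 29.5 FPKM in the epithelia and 39.7 to 47.6 in organoids (log2 difference 0.32, SE 0.10, limma adjusted p = 0.0329), a call that ended with median-of-ratios scaling (adjusted p = 0.237) and without bile duct organoid 1 or 2, pancreatic duct organoid 3 or either epithelium (adjusted p between 0.0518 and 0.279).

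The isozyme balance of several steps moved between epithelia and organoids. Within the hexokinases, Hk2 made up 29.7% of the summed FPKM of Hk1 and Hk2 in the bile duct epithelium, 43.9% to 44.5% in bile duct organoids, 10.4% in the pancreatic duct epithelium and 26.8% to 36.9% in pancreatic duct organoids. Pfkl made up 29.3% and 24.8% of the phosphofructokinase FPKM in the epithelia of bile duct and pancreatic duct, but 58.2% to 73.7% in organoids. Ldhb fell from 17.3% and 22.7% of the lactate dehydrogenase FPKM in the epithelia to between 0.177% and 2.78% in organoids. These shares are ratios of length-scaled values and are not protein levels, and they were not tested. Among the kinases, Pdk4 was 80.1% and 79.4% of the summed Pdk1 and Pdk4 FPKM in the epithelia and 0.133% to 12.2% in organoids. Slc16a3 had no such separation, with 22.9% and 32.2% of the summed Slc16a1 and Slc16a3 FPKM in the epithelia and 6.54% to 45.9% in organoids.

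**Figure D4:**
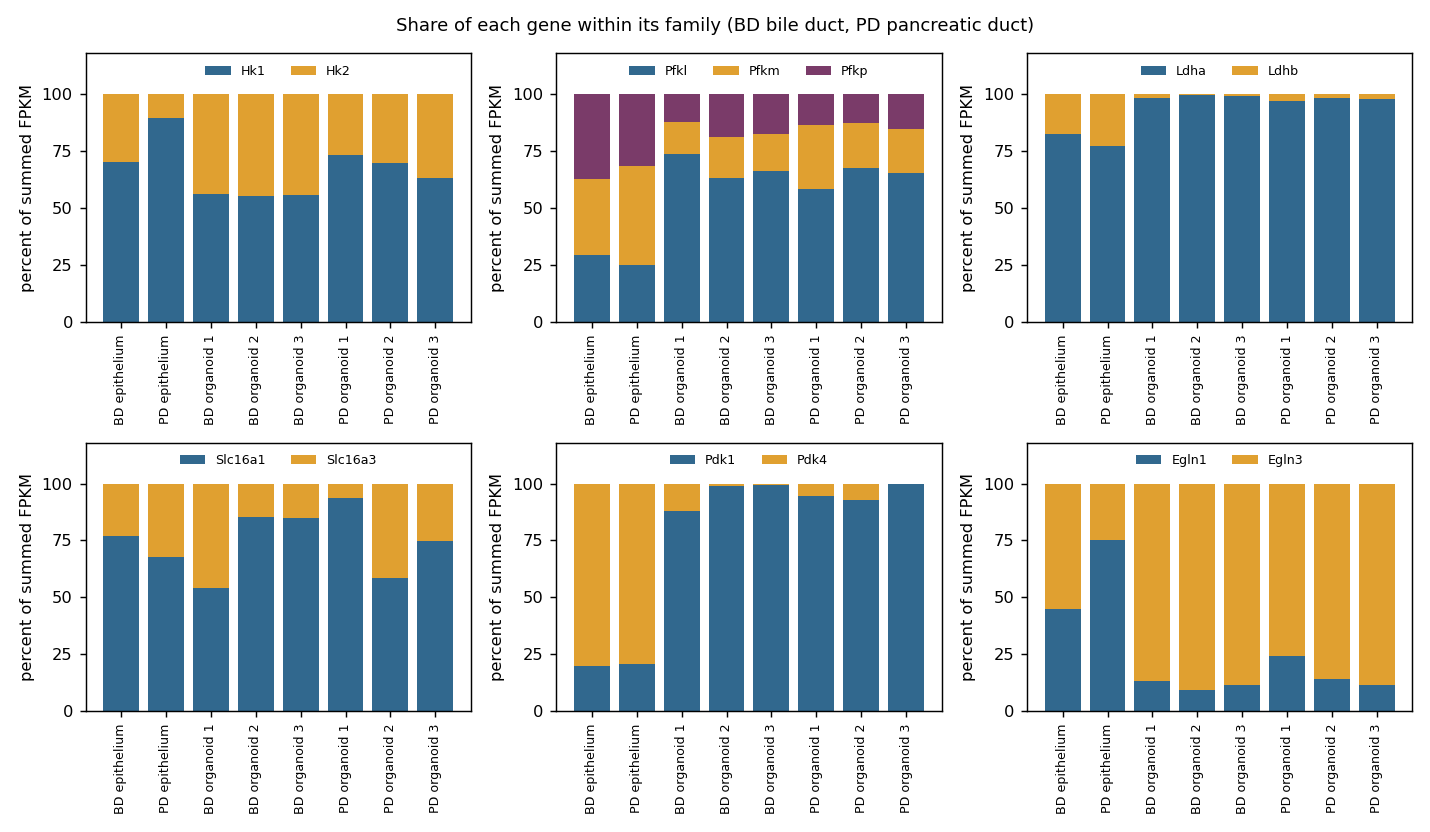
Share of each gene in the summed FPKM of its family, in percent, for each library. Pfkl, Ldha, Pdk1 and Egln3 take a larger share in all 6 organoids than in either epithelium, whereas the share of Slc16a3 in organoids (6.54% to 45.9%) spans that of the epithelia.

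Among the oxygen sensors only Egln3 was called. Hif1a, the hypoxia-inducible factor subunit, was at 20.6 and 24.0 FPKM in the bile duct and pancreatic duct epithelium, with 15.4 to 24.6 in organoids (log2 difference -0.38, SE 0.25, limma adjusted p = 0.223, and 0.0443 without bile duct organoid 1). Egln1 encodes the main prolyl hydroxylase that marks it for destruction, and was at 18.5 and 20.4 FPKM in the epithelia and 14.7 to 21.1 in organoids (log2 difference -0.33, SE 0.20, limma adjusted p = 0.188). Egln3, a prolyl hydroxylase that is itself induced by hypoxia, was at 22.6 and 6.68 FPKM in the epithelia, 132, 147 and 124 in bile duct organoids and 48.4, 127 and 117 in pancreatic duct organoids. All organoids were above both epithelia (log2 difference 2.89, SE 0.39, limma adjusted p = 0.000683). The share of Egln3 in the summed FPKM of Egln1 and Egln3 was 54.9% and 24.7% in the epithelia and 75.6% to 90.9% in organoids.

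The 7 other hypoxia targets went in different directions, with a median log2 difference of -0.31. Car9, the membrane carbonic anhydrase often used as a marker of hypoxia, was at 16.5 and 4.44 FPKM in the bile duct and pancreatic duct epithelium, 63.9, 46.1 and 36.1 in bile duct organoids and 24.6, 97.6 and 34.1 in pancreatic duct organoids. All organoids were above both epithelia (log2 difference 2.11, SE 0.59, limma adjusted p = 0.0181), though pancreatic duct organoid 1 at 24.6 FPKM was close to the bile duct epithelium at 16.5. Without the pancreatic duct epithelium the difference was 1.32 with an adjusted p of 0.222. Adm, the vasodilator peptide adrenomedullin, was at 10.6 and 18.7 FPKM in the epithelia, 1.80, 3.68 and 3.46 in bile duct organoids and 0.481, 3.30 and 0.801 in pancreatic duct organoids. It was lower in every organoid (log2 difference -2.49, SE 0.50, limma adjusted p = 0.00442), with an adjusted p of 0.0764 when the pancreatic duct epithelium was left out.

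P4ha1, the collagen prolyl hydroxylase subunit, was at 32.7 and 29.5 FPKM in the epithelia, 20.1, 12.4 and 14.1 in bile duct organoids and 9.55, 19.7 and 12.4 in pancreatic duct organoids. Every organoid lay below both epithelia (log2 difference -1.22, SE 0.30, limma adjusted p = 0.00992), and the call was lost without either epithelium (adjusted p = 0.0725 without the bile duct epithelium and 0.0805 without the pancreatic duct epithelium). The 6 fibroblast markers, whose cells express collagen-modifying enzymes, moved the same way as given above, and their part in this difference was not tested. Ndrg1, a stress-response gene, was at 20.8 and 27.3 FPKM in the epithelia, 15.8, 10.8 and 8.25 in bile duct organoids and 4.48, 16.8 and 12.4 in pancreatic duct organoids. All organoids were below both epithelia, yet the test fell just short of the threshold (log2 difference -1.25, SE 0.46, limma adjusted p = 0.0515), and passed it under 6 alternatives (adjusted p between 0.0268 and 0.0465). Vegfa, the vascular growth factor, was at 23.6 and 24.6 FPKM in the epithelia and 24.2 to 61.5 in organoids (log2 difference 0.63, limma adjusted p = 0.151), and without pancreatic duct organoid 1 its adjusted p was 0.0400. Bnip3, a mitophagy receptor, was at 9.39 and 5.26 FPKM in the epithelia and 1.78 to 14.2 in organoids (log2 difference -0.31, limma adjusted p = 0.648). Ankrd37 was weakly expressed everywhere, at 1.41 and 1.09 FPKM in the epithelia and 1.27 to 7.53 in organoids (log2 difference 0.67, limma adjusted p = 0.259).

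Each organ was then taken on its own, against its single epithelium, as values with no test. A gene was counted where it was at least 2-fold apart and all 3 organoids lay on the same side of their epithelium. In bile duct, 13 of the 34 genes were higher in organoids and 5 lower, where 14.2% of the 15803 genes compared were higher and 24.0% lower. In pancreatic duct, 15 were higher and 5 lower, where 16.9% of 15600 genes were higher and 22.8% lower. Slc2a1, Hk2, Pfkl, Tpi1, Pgk1, Pgam1, Eno1, Pkm, Ldha, Slc16a1, Egln3 and Car9 were higher by this rule in both organs, and Ldhb, Pdk4, Adm and P4ha1 lower in both. Gpi1 (log2 difference 0.74 in bile duct and 1.42 in pancreatic duct), Aldoa (0.91 and 1.35), Gapdh (-0.05 and 1.03) and Ndrg1 (-0.98 and -1.52) passed it in pancreatic duct only. Pfkfb4 (-1.21 and -0.96) and Slc16a3 (1.66 and 1.51) passed it in bile duct only. With near-identical copies summed, Gapdh passed in both organs (2.58 in bile duct and 2.64 in pancreatic duct), and Pdk1 moved across the 2-fold limit in pancreatic duct (from 0.999 to 1.00). No gene of the 34 was 2-fold apart in opposite directions, and no test was run of whether an effect differed by organ.

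The epithelia themselves were at least 2-fold apart for 4 of the 34 genes (11.8%), all higher in bile duct. This share was near that of all genes in the same direction, given below. The bile duct epithelium exceeded the pancreatic duct epithelium by a log2 difference of 1.23 for Hk2, 1.08 for Gapdh, 1.62 for Egln3 and 1.69 for Car9. At least 2-fold differences were found in 8.96% of the 15349 genes compared in this direction and in 4.44% in the other, and none of the 34 genes lay in the latter group. The duct marker sum was also higher in the bile duct epithelium (2183 against 471 FPKM) and the acinar sum lower (15561 against 34888 FPKM). The intestinal epithelium sum (384 against 9.05 FPKM), the hepatocyte sum (378 against 86.8 FPKM) and the fat sum (430.4 against 145 FPKM) were likewise higher in the bile duct epithelium. The part of these cell types in the differences was not tested. With copies summed the Gapdh difference was 0.01. With a single library on each side there is no replicate check.

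Bile duct and pancreatic duct organoids were not distinguished for any of the 33 genes tested, Pdk4 being below the minimum of 1 FPKM in at least 3 organoids. No gene of the 12094 tested had an adjusted p under 0.05 (0.0%), while 2.57% had an unadjusted p under 0.05. Within the 33 genes the unadjusted p was under that level for Hk2, which was higher in bile duct organoids (log2 difference 0.47, SE 0.13, unadjusted p = 0.00997, limma adjusted p = 1.00), and for Pfkm, which was higher in pancreatic duct organoids (log2 difference -0.31, SE 0.11, unadjusted p = 0.0317, limma adjusted p = 1.00). On values scaled over the 6 organoids the groups did not overlap for 3 of 33 genes (9.09%), namely Hk2 and Pfkfb4, higher in bile duct organoids, and Pfkm, higher in pancreatic duct organoids, against 6.69% of all genes tested. On deposited FPKM these were Hk2 and Tpi1, higher in bile duct organoids, and Pfkm and Ldhb, higher in pancreatic duct organoids (4 of 33, or 12.1%, against 6.37%). Hk2 and Pfkm were apart on both scales, and Tpi1, Ldhb and Pfkfb4 on 1 of them. For Ldhb the log2 difference was -1.20 (SE 0.52, unadjusted p = 0.0600).

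The spread over the 6 organoids of both ducts differed widely between genes. In deposited FPKM the highest organoid exceeded the lowest by 12.1-fold for Slc16a3, 11.3-fold for Ldhb, 8.01-fold for Bnip3, 7.64-fold for Adm, 5.95-fold for Ankrd37, 5.73-fold for Eno2 and 3.97-fold for Car9. The ratio was 1.64 for the lactate transporter Slc16a1, 1.60 for Hif1a and 1.43 for the oxygen sensor Egln1. Pdk4 ranged over 72.5-fold, but on as few as 1 read. The log2 range of Slc16a3 over the 6 organoids, 3.17, was wider than that of 98.9% of all genes tested, whose median was 0.55. Pkm, Eno1 and Pdha1 varied least, with log2 ranges of 0.29, 0.30 and 0.24. The lowest value of Ldhb was that of bile duct organoid 2, at 0.797 FPKM.

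Pancreatic duct organoid 1 stood at the low end of most of these genes. It was the lowest of the 6 organoids for 23 of 33 genes (69.7%), whereas it was lowest for 11.7% of all 12094 genes tested. It was lowest for 11 of the 15 genes of glucose uptake and conversion to pyruvate and for 8 of the 10 genes of oxygen sensing and hypoxia. Pgk1 was at 259 FPKM there against 425 to 515 in the other organoids, Egln3 at 48.4 against 117 to 147, and Bnip3 at 1.78 against 5.13 to 14.2. Ldhb and Hk1 did not follow, with 7.94 and 23.1 FPKM in pancreatic duct organoid 1. Pancreatic duct organoid 2 was the highest for 10 of 33 genes (30.3%, against 18.2% of all genes tested) and bile duct organoid 1 for 9 of 33 (27.3%, against 22.5%). The count of 23 was the same with FPKM as deposited and with median-of-ratios scaling, where 13.1% and 10.8% of all genes were lowest in that culture. Among the organoids this library had the fewest reads (15405377), the highest mitochondrial share (7.29%) and the highest duct marker sum (11022 FPKM). The part of these in the pattern was not tested.

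**Figure D5:**
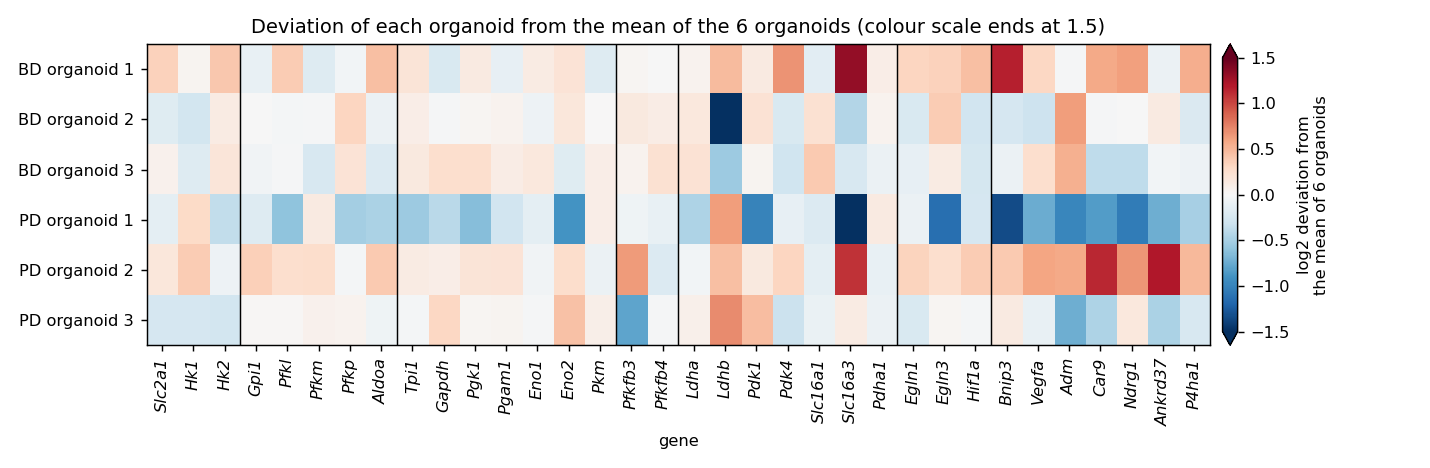
Deviation of each organoid from the mean of the 6 organoids, in log2 units of scaled FPKM + 1, for each gene, with blue below and red above the mean. The row of pancreatic duct organoid 1 is blue for most genes, where it is the lowest culture for 23 of 33 tested genes, and the widest colours lie at Slc16a3, Bnip3 and Ldhb.

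Neighbouring pathways were read from fixed lists of genes outside the 34, in the comparison of organoids with epithelia, where 31.9% of all genes tested were higher and 27.5% lower. Some listed genes stayed under the minimum of 1 FPKM in all organoids and passed it only through the epithelia, so they could be called only as lower, and they are pointed out in each list. In the pentose phosphate pathway, which branches from glucose 6-phosphate and supplies NADPH and ribose, all 8 genes were higher, among them Tkt (log2 difference 2.54), Pgd (2.31) and G6pdx (1.84). Of 7 other glucose transporter genes tested, 6 were lower and none higher, with Slc2a4 (-3.90), Slc5a1 (-3.17) and Slc2a2 (-2.68) the widest. Of these 6, 4 (Slc2a3, Slc2a4, Slc2a10 and Slc2a12) passed the minimum only through the epithelia, and Slc2a2 and Slc5a1 reached it in 1 organoid each. Slc2a4, the insulin-responsive transporter of muscle and fat, read 15.2 and 16.6 FPKM in the epithelia and at most 0.288 in organoids. The 5 fat markers moved with it, at 430.4 and 145 FPKM summed over the list in the epithelia and at most 0.772 in organoids with Lep at 0, and their part was not tested. Other glycolytic isozymes were mostly not called, with Aldoc higher (1.25) and Eno3 (-1.57) and Hk3 (-1.33) among the lower genes of 10 tested, Hk3 passing the minimum only through the epithelia. Of 3 further regulators of fructose bisphosphate only Pfkfb2 was called (0.84), and of 4 genes of gluconeogenesis only G6pc3 (0.55). Of 9 glycogen genes, Pgm2 (1.01) and Gys1 (0.92) were higher and 4 were lower, among them the phosphorylases Pygm (-2.52) and Pygl (-2.32) and the branching enzyme Gbe1 (-0.64). Pygm and Pygl passed the minimum only through the epithelia. The most abundant phosphorylase, Pygb, read 28.7 and 32.5 FPKM in the epithelia and 34.1 to 44.8 in organoids and was not called (log2 difference 0.18, limma adjusted p = 0.221).

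At the entry of pyruvate into mitochondria, 5 of 11 genes were higher (45.5%) and 4 lower (36.4%), not far from the 31.9% and 27.5% of all genes tested. Pdp2 (log2 difference 1.38), Dlat (1.15) and Pdhx (0.67) were higher, and the kinase Pdk2 (-1.81), the phosphatase Pdp1 (-1.24) and the carrier subunit Mpc1 (-0.88) were lower. Bsg, the chaperone that brings MCT1 and MCT4 to the membrane, was higher (0.81), while the related Emb (-2.22) and the transporter Slc16a7 (-2.07) were lower, both passing the minimum only through the epithelia. In the wider oxygen-sensing machinery 5 of 12 genes were higher (41.7%, against 31.9% of all genes), including the asparagine hydroxylase Hif1an (0.97) and the ubiquitin ligase subunits Elob (0.72) and Rbx1 (0.48). The only lower gene was Epas1, which encodes the endothelium-rich HIF-2α and read 79.1 and 173 FPKM in the bile duct and pancreatic duct epithelium, with 5.48 to 9.90 in organoids (log2 difference -3.97, SE 0.24, limma adjusted p = 1.1e-05). The 5 endothelial markers moved with it, as given above, and their part was not tested. Of 28 other hypoxia-induced genes, 5 were higher, among them Mif (1.86), Tmem45a (1.49) and Ddit4 (1.38), and 7 lower, among them Lox (-5.10), Plod2 (-2.10) and Pgf (-1.72), with a median of 0.12 against 0.09 over all genes. Lox and Pgf passed the minimum only through the epithelia.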

How the data were processed

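Per the labels' protocols, poly-A RNA was selected from each of 8 mouse samples and prepared with NEBNext Ultra reagents. The authors deposited 1 table of FPKM values for 31228 genes. Bowtie2 2.2.3, HISAT2 2.1.0, TopHat2 and HTSeq 0.6.0 are named in the submitters' processing notes, without roles, and use of strand is not given in the sources used here. FPKM times exon length gave whole reads (within 0.05 read) in all libraries for 90.7% of genes, from which depth was read. Deposited coordinates equal those of GENCODE M21 (GRCm38) for 28575 of 31141 genes found there.

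FPKM were scaled by a trimmed mean of log ratios (30% of ratios, 5% of levels) and tested as log2(FPKM + 1) with limma 3.58.1 and an intensity trend in R 4.3.3, with Benjamini-Hochberg adjustment over all genes and a threshold of 0.05. This scale understates changes of weak genes. Genes needed 1 FPKM in 2 of 8 libraries or in 3 of 6 organoids. Sample levels are deposited FPKM, and differences use scaled FPKM. Copies were found with minimap2 2.31 (95% identity, at least 50% of the copy aligned). Fits were tested on simulated data. All 34 genes are named, and of each pathway list up to 3 called genes with the widest difference per direction. A gene that this rule names is not reported here. The genes and lists were chosen with earlier results of these data known. Alternatives were scaling, pseudocount, filter, trend, covariate, and each library left out. Summed copies and scaling without mitochondrial and acinar genes were added after seeing the data. All per-sample columns were used.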

Additional observations from a re-analysis of the deposited data

How the results depend on the processing

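In the comparison of organoids with epithelia, the 8900 genes called became 4697 with a minimum of 10 FPKM and 4264 to 9216 with 1 library left out, the lowest without the pancreatic duct epithelium. Of the 34 genes, the number called lower ranged from 3 to 7 and the number called higher from 12 to 19 with 1 library left out. Of the lower calls, Ldhb and P4ha1 were lost without the bile duct epithelium, and Adm and P4ha1 without the pancreatic duct epithelium. Genes whose sign turned were all uncalled. Pfkm was at -0.0041 with median-of-ratios scaling, Pfkp at 0.13 with FPKM as deposited and between -0.066 and 0.068 with 1 library left out, and Gapdh between -0.048 and 1.03. Pfkm passed the threshold with FPKM as deposited (log2 difference 0.30, limma adjusted p = 0.0432), and Ndrg1 with median-of-ratios scaling (-1.41, limma adjusted p = 0.0322). Scaling moved the median of all genes from 0.09 to 0.23 (as deposited) or -0.05 (median of ratios), and the share of calls that were higher from 53.7% to 60.0% or 44.8%. Between bile duct and pancreatic duct organoids, the 0 genes called became at most 11 with 1 library left out (without pancreatic duct organoid 3). With the replicate number as a block the count was 0. Deviations from the group means correlated at -0.10, -0.44 and 0.48 between same-numbered organoids 1, 2 and 3. Between differently numbered organoids they ranged from -0.60 (bile duct 3, pancreatic duct 2) to 0.65 (bile duct 1, pancreatic duct 2). Bile duct organoid 2 and pancreatic duct organoid 3 correlated at 0.43. Deviating together thus did not follow the number, and the numbers were not taken as pairs. Depth limits Pdk4 in organoids, with 1 to 62 reads.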

Other observations

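Among regulators of glycolytic genes outside the 34, 6 of 10 were higher in organoids (60.0%, against 31.9% of all genes tested) and 1 was lower. Myc, a growth factor-responsive activator of glycolytic genes, read 9.58 and 11.6 FPKM in the bile duct and pancreatic duct epithelium, 60.7, 70.6 and 73.5 in bile duct organoids and 88.4, 81.8 and 62.0 in pancreatic duct organoids (log2 difference 2.52, SE 0.16, limma adjusted p = 1.44e-05). Pancreatic duct organoid 1, which was lowest for most of the 34 genes, had the highest Myc level. Mycn was also higher (1.89), from 0.778 and 1.10 FPKM in the epithelia to 2.14 to 13.5 in organoids, as was Trp53 (1.33). Ppargc1a, a coactivator of mitochondrial biogenesis, was lower (-1.15), from 2.17 and 1.18 FPKM to at most 0.859, and passed the minimum of 1 FPKM only through the epithelia. The proliferation marker Mki67 read 6.00 and 3.04 FPKM in the epithelia and was lowest among the organoids in pancreatic duct organoid 2 (18.5 FPKM), followed by bile duct organoid 1 (23.6). G6pdx was likewise lowest in bile duct organoid 1 (32.8 FPKM) and pancreatic duct organoid 2 (37.5 FPKM) and highest in pancreatic duct organoid 1 (77.0 FPKM). These orders were noticed after seeing the values and were not tested.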
